A study of Mus musculus with 6 samples.

Results

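The respiratory chain subunits were the rows of the count table whose gene symbol starts with Ndufa, Ndufb, Ndufc, Ndufs, Ndufv, Uqcr, Cox4 to Cox8 or Atp5, or is Sdh followed by a to d. This choice by name found 94 of 23420 genes, of which 88 were among the 13682 genes with at least 10 reads in total that were tested. They fell into complex I with 45 genes, complex II with 6, complex III with 8, complex IV with 18 and complex V with 17. The names also take in 11 genes that are not subunits, which are the 7 Ndufaf and 2 Sdhaf assembly factors, Atp5s and Atp5sl, and these were kept apart from the 83 subunits. Ndufa4 stands under complex I by its name, although it is now counted as a subunit of complex IV, and Atp5sl stands under complex V, although the annotation names it Dmac2, an assembly factor of complex I.

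Splenic B cells came from 3 Ahr+/+ and 3 Ahr-/- mice. The paper lists the Ahr-/- line apart from C57Bl/6J, under a strain name that is not C57Bl/6J alone. All Ahr-/- libraries come from Ahr-/- mice, so strain differences near Ahr or elsewhere cannot be told apart from the loss of AhR. Their part in the values below was not tested. AhR, a transcription factor switched on by small molecules, is disrupted in the germline of the Ahr-/- line, so the change is not limited to B cells. According to the methods, the mice were older than 8 weeks and B cells were isolated with a purification kit. All 6 cultures lasted 8 h and received 10 μg/ml α-IgM, which engages the B-cell receptor, IL-4 at 20 ng/ml and, over the last 4 h, the AhR ligand FICZ at 250 nM, so no library shows resting cells or cells without ligand.

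The respiratory chain transfers electrons from NADH (complex I) and succinate (complex II) through complex III and cytochrome c to oxygen (complex IV), and ATP synthase (complex V) uses the resulting proton gradient to make ATP. Complexes I, III, IV and V have a core that carries out the reaction and, around it, accessory (supernumerary) subunits that build and stabilise the complex, whereas complex II has no accessory subunits. Activated B cells raise respiration as they prepare to divide. Part of complexes I, III, IV and V is encoded in mitochondrial DNA, and those 13 genes were not in the table used here, so the values below are of nuclear genes.

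Total counts lay between 22095096 and 53648787 per library. Ahr itself had 12681 to 13953 normalised counts in Ahr+/+ cells and 8856 to 9717 in Ahr-/- cells (log2 fold change -0.52, adjusted p = 7.1e-06), and reads summed over all exons cannot show which part of the gene is transcribed. All 8 B-cell markers examined were detected. Of these, 5 were called higher in Ahr-/- cells and none lower, beside 9.79% and 8.13% of all tested genes. The summed level of the 8 was 89205 to 93533 normalised counts in Ahr+/+ libraries and 104196 to 109371 in Ahr-/- libraries. In bulk samples, fewer cells of a type and less RNA per cell cannot be told apart.

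In Ahr-/- B cells 20 respiratory chain genes were higher and none was lower by edgeR's quasi-likelihood test at a Benjamini-Hochberg adjusted p under 0.05. Over all tested genes, 9.79% were called higher and 8.13% lower. Without adjustment, 32 members were higher and 1 was lower at p under 0.05, as were 15.7% and 13.7% of all tested genes. The changes were small. The 18 called members with at least 100 normalised counts rose by 9.19% to 24.8%, and the remaining pair, Cox6a2 and Cox6b2, had 5.62 to 34.3 normalised counts per library. The calls fell on complex IV in 8 of 14 tested members, complex I in 6 of 43, complex V in 3 of 17, complex III in 2 of 8 and complex II in 1 of 6, the last being the assembly factor Sdhaf1. All 20 had every Ahr-/- library above every Ahr+/+ library, which gives the smallest two-sided exact permutation p that 3 mice against 3 allow, 0.1.

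**Figure D1:**
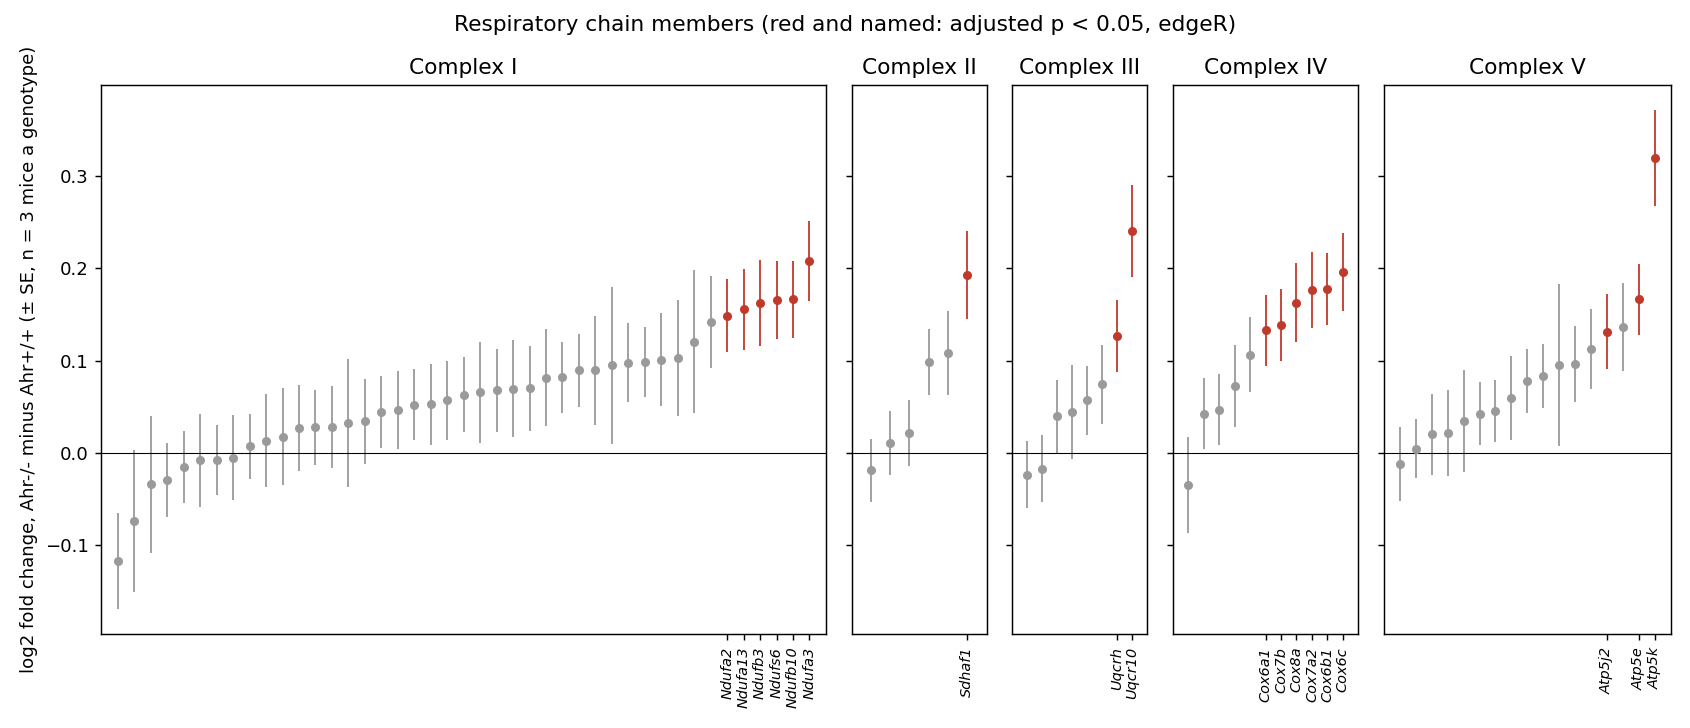
Log2 fold change of Ahr-/- against Ahr+/+ (vertical axis, with standard error, n = 3 mice per genotype) for the 85 tested members with a mean of at least 50 normalised counts, ordered within each complex. Red points passed the threshold and carry their gene names. The red points lie towards the upper end of each complex and reach 0.32 for Atp5k, while the lowest point, Ndufv2 at -0.12, did not pass.

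Of the 88 tested members 74 had a positive log2 fold change, with a median of 0.069 beside 0.0022 over all tested genes. The median was 0.14 in complex IV, 0.078 in complex V, 0.063 in complex I, 0.060 in complex II and 0.051 in complex III. In 34 members every Ahr-/- library was above every Ahr+/+ library, and in none was every Ahr-/- library below. The same pattern held for 17.7% of all tested genes upwards and 15.8% downwards.

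The 3 Ahr-/- libraries were not alike. The summed level of the 18 complex IV genes, per kilobase of transcript and relative to the Ahr+/+ mean, was 99.9%, 100.6% and 99.5% in Ahr+/+ libraries and 110.0%, 108.6% and 103.9% in Ahr-/- libraries. For complex V it was 100.3%, 100.2% and 99.5% against 106.4%, 106.7% and 101.9%. By this sum per kilobase, Ahr-/- replicate 3 was in each of the 5 complexes the Ahr-/- library nearest to the controls and still above all of them. This depends on the division by length. Undivided, the complex V subunits summed to 172604 normalised counts in Ahr-/- replicate 3, below the 172791 of Ahr+/+ replicate 2. With that library left out, the number of members called higher was 26 and the median of complex III moved from 0.051 to 0.084. Without Ahr-/- replicate 2 that median was 0.029. The number called was 9 without Ahr+/+ replicate 3, 12 without Ahr-/- replicate 1 and 9 without Ahr-/- replicate 2. Over all tested genes, 2453 were called in either direction with all 6 libraries, 2601 without Ahr-/- replicate 3, and 1770, 2110 and 1664 in the other fits just named. Atp5k, Uqcr10, Ndufa3, Cox6c, Cox6b1, Atp5e and Cox6a2 passed whichever library was left out, and the other 13 calls depended on at least 1 library, namely Atp5j2, Cox6a1, Cox6b2, Cox7a2, Cox7b, Cox8a, Ndufa13, Ndufa2, Ndufb10, Ndufb3, Ndufs6, Sdhaf1 and Uqcrh.

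**Figure D2:**
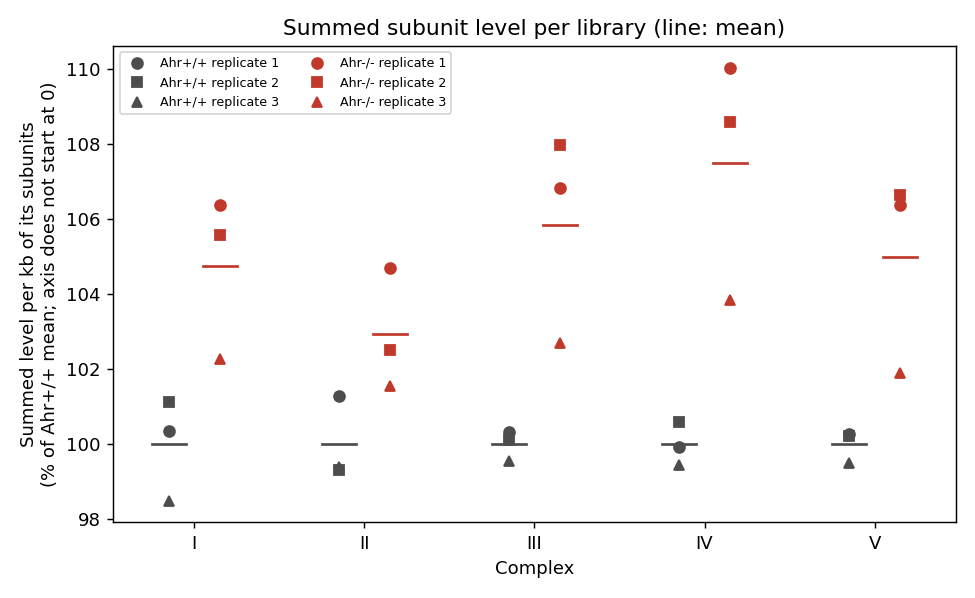
Summed level per kilobase of the subunits of each complex (vertical axis, percent of the Ahr+/+ mean, not starting at 0) in each library, with the mean of each genotype as a line. In all 5 complexes the 3 Ahr-/- libraries lie above the 3 Ahr+/+ libraries, and Ahr-/- replicate 3 (red triangle) lies lowest of its genotype.

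Sequence upstream of the start site is shown for 4 called members with at least 100 normalised counts. They had the largest change among those with 1 promoter window and at least 100 bases ahead of every annotated start. Counted from the RefSeq start, the stretch runs from -249 to -50 for Atp5k and from -237 to -38 for Cox6b1. For Uqcr10 and Ndufa3 it runs from -200 to -1. The sequences are from RefSeq on build GRCm38.p6, 5′ to 3′ on the strand of the gene, 200 bases each. Capitals mark matches to either of the motifs GCGTG, the core bound by AhR with its partner ARNT, and CCAAT, a common promoter element, read on both strands. The stretches are chr5:108434449-108434648 (minus strand), chr11:4704345-4704544 (minus strand), chr7:3617173-3617372 (plus strand) and chr7:30626152-30626351 (minus strand).
Atp5k: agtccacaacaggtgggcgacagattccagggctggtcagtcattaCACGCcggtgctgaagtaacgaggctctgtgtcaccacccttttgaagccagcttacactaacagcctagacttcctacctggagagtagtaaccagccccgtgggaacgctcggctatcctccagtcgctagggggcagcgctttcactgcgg
Uqcr10: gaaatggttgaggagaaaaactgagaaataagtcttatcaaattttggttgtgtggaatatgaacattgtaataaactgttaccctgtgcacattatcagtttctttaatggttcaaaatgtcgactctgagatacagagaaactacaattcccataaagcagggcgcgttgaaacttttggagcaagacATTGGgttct
Ndufa3: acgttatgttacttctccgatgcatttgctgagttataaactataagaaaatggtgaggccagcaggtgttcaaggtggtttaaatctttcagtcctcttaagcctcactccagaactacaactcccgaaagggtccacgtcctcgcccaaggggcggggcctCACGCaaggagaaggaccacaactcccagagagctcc
Cox6b1: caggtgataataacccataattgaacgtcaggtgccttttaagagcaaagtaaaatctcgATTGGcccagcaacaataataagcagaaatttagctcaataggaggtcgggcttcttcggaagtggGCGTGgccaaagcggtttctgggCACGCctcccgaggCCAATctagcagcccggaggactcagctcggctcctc

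The Atp5k stretch holds 1 GCGTG match, from 203 to 199 bases before the RefSeq start, and the Ndufa3 stretch 1, from 37 to 33 bases before it. The Cox6b1 stretch holds 2 GCGTG and 2 CCAAT matches, and the Uqcr10 stretch a single CCAAT match. No match to GCGCNNGCGC, a pattern bound by the factor NRF-1, or to CCGGAAG, a pattern of ETS factors such as GABP, lies in these stretches, which says only that these letters are not there. Windows from 250 bases before to 50 bases after the start were found for 75 of the 94 members. GCGTG on either strand was in those of 42 members (56.0%), against 32.4% of all 32851 windows. CCAAT was in those of 33 members (44.0%), against 37.4%. GCGCNNGCGC was in those of 21 members (28.0%), against 6.23%, and CCGGAAG in those of 19 (25.3%), against 8.86%. All 4 motifs were thus in a larger share of members than of windows, where a member counts if any of its windows holds the motif. Members' windows had a median GC content of 58.0%, against 52.7% over all windows, and some members have more than 1 window. Of the 17 called members with a window, CCAAT was found in 13, GCGTG in 9, CCGGAAG in 7 and GCGCNNGCGC in 3. Of the 55 tested members that were not called, CCAAT was found in 19, GCGTG in 32, CCGGAAG in 12 and GCGCNNGCGC in 17. The called members thus had the larger share with CCAAT (76.5% against 34.5%) and CCGGAAG (41.2% against 21.8%) and the smaller share with GCGTG (52.9% against 58.2%) and GCGCNNGCGC (17.6% against 30.9%), given as a description without a test. Matches of different motifs can share bases, and a match is no evidence of binding.

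In complex I, which takes electrons from NADH, the 6 called members are all accessory subunits. Ndufa3, the subunit with the largest change of this complex, had 1513, 1567 and 1542 normalised counts in Ahr+/+ cells, against 1831, 1815 and 1699 in Ahr-/- cells. The libraries of the genotypes do not overlap, and the means were 1541 ± 26.7 and 1782 ± 72.3 (SD, n = 3 mice; log2 fold change 0.21, SE 0.044, adjusted p = 0.0052). Below, the first 3 values of a gene are Ahr+/+ replicates 1 to 3 and the values after "against" are Ahr-/- replicates 1 to 3. Ndufb10 had 1439, 1477 and 1406 normalised counts against 1593, 1655 and 1598 (log2 fold change 0.17, SE 0.042, adjusted p = 0.016). Ndufs6, an accessory subunit that binds zinc, had 1717, 1592 and 1636 normalised counts against 1871, 1846 and 1835 (log2 fold change 0.17, SE 0.042, adjusted p = 0.016), a call that held in 12 of 17 other settings. The lowest Ahr-/- library was above the highest Ahr+/+ library in both. Ndufb3 had 999, 1003 and 962 normalised counts against 1116, 1093 and 1113 (log2 fold change 0.16, adjusted p = 0.03). This call held in 8 of 17 other settings. Among those that lost it were DESeq2's Wald test and a fit with the replicate number as a block (the replicate block). Ndufa2 had 1769.7, 1779.8 and 1698 normalised counts against 1949.7, 1958 and 1912 (log2 fold change 0.15, adjusted p = 0.019). Its call held in 12 of 17 other settings and was lost by DESeq2's Wald test, among others. Ndufa13, also known as GRIM-19 for a role in cell death, had 1862, 1906 and 1770.0 normalised counts against 2151, 2023 and 2013 (log2 fold change 0.16, adjusted p = 0.028). Of the exonic bases of Ndufa13, 29.98% overlap those of Tssk6 on the opposite strand. Whether the counting used strand is not given in the sources used here, so reads of overlapping genes may not be separated.

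The core subunits of complex I described here did not pass the test. Ndufv1, which binds NADH and the flavin, had 4234, 4327 and 4100.4 normalised counts against 4193, 4151 and 4253 (log2 fold change -0.0077, adjusted p = 0.92). Ndufs1, which carries iron-sulphur clusters, had 5091, 4781 and 4909 normalised counts against 4945, 4856 and 4689 (log2 fold change -0.030, adjusted p = 0.69). Both had overlapping libraries. Ndufv2, another iron-sulphur subunit, had the lowest fold change of all members with at least 50 normalised counts, with 4155, 4112 and 4118 normalised counts against 4153, 3759 and 3538 (log2 fold change -0.12, SE 0.052, adjusted p = 0.15). Ahr-/- replicate 1 of Ndufv2 lay within the Ahr+/+ range and the other two Ahr-/- libraries lay below it, and the gene was called lower when replicate 1 was left out. Ndufs3, Ndufs7 and Ndufs8 belong to the arm that binds ubiquinone. Ndufs3 had 4219, 4034 and 3948 normalised counts against 4076, 4048 and 3955 (log2 fold change -0.015). Ndufs7 had 2419, 2515 and 2303 normalised counts against 2564, 2434 and 2543 (log2 fold change 0.057). Both overlapped between genotypes. Ndufs8 had 3363, 3523 and 3383 normalised counts against 3569.9, 3726 and 3687 (log2 fold change 0.098, adjusted p = 0.10). Of the core subunits named here, only Ndufs8 had separate libraries. The 23 accessory subunits that did not pass had log2 fold changes from -0.0080 (Ndufa11) to 0.14 (Ndufb6). Ndufb6 had 1847, 1871 and 1909 normalised counts against 2217, 2086 and 1925 (log2 fold change 0.14, adjusted p = 0.073). Ndufab1, the mitochondrial acyl carrier protein, had 1761, 1775 and 1742 normalised counts against 2025, 1904 and 1752 (log2 fold change 0.10, adjusted p = 0.21). The genotypes were apart for Ndufb6 and overlapped for Ndufab1. The 7 Ndufaf assembly factors had fold changes between -0.074 (Ndufaf3) and 0.095 (Ndufaf5) on the log2 scale and none passed. Ndufs5 was listed at 0 in every library, and Ndufa4l2 had 0 to 2 reads, so neither was tested. Whether the counting missed the reads of Ndufs5 was not tested, so its 0 does not show that the gene is silent.

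Complex II, succinate dehydrogenase, is the only complex that also takes part in the citrate cycle. None of its 4 subunits passed. Sdha, the flavoprotein that oxidises succinate, had 9926, 10101 and 9707 normalised counts against 9694, 9772 and 9878 (log2 fold change -0.019, adjusted p = 0.77). Sdhb, its iron-sulphur partner, had 4037, 4016 and 4007 normalised counts against 4081, 4034 and 4038 (log2 fold change 0.011, adjusted p = 0.87). These catalytic subunits overlapped between genotypes. Sdhc, a membrane anchor, had 2775, 2706 and 2699 normalised counts against 2973, 2896 and 2898 (log2 fold change 0.099, adjusted p = 0.085). Sdhd, the other anchor, had 4131, 3840.4 and 4033 normalised counts against 4545, 4300.1 and 4113 (log2 fold change 0.11, adjusted p = 0.14). The groups did not overlap for Sdhc and overlapped for Sdhd. Sdhaf1, which helps to insert the iron-sulphur clusters of Sdhb, was the called gene of this group, with 1323, 1327 and 1228 normalised counts against 1515, 1432 and 1495 (log2 fold change 0.19, SE 0.048, adjusted p = 0.014). Of its exonic bases, 69.6% overlap E130208F15Rik on the opposite strand, so its counts are uncertain. The other factor, Sdhaf2, had 2689, 2756 and 2713 normalised counts against 2767, 2726 and 2792 (log2 fold change 0.022).

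In complex III, cytochrome bc1, the small subunit Uqcr10 had 2674, 2787 and 2898 normalised counts in Ahr+/+ cells, against 3393, 3431 and 3054 in Ahr-/- cells. All Ahr-/- libraries were above the Ahr+/+ libraries, with replicate 3 closest, and the means were 2786 ± 112 and 3293 ± 207 (SD, n = 3 mice; log2 fold change 0.24, SE 0.050, adjusted p = 0.0049). Uqcrh, the hinge protein beside cytochrome c1, had 4295, 4199.6 and 4045 normalised counts against 4500.1, 4647 and 4541 (log2 fold change 0.13, adjusted p = 0.04). Its call held in 10 of 17 other settings and was lost with the replicate block, among others. Uqcrfs1, the Rieske iron-sulphur protein, had 4068, 4032 and 4082 normalised counts against 4256, 4281 and 3989 (log2 fold change 0.040, adjusted p = 0.56). Its libraries overlapped. Uqcrc1, a large scaffold subunit, had 8696, 8738 and 8437 normalised counts against 8267, 8466 and 8704 (log2 fold change -0.024). Uqcrc2, its partner, had 9745, 9629 and 9873 normalised counts against 9909.8, 9669 and 9337 (log2 fold change -0.017). These larger subunits overlapped between genotypes. The other small subunits, Uqcr11, Uqcrq and Uqcrb, had log2 fold changes of 0.075, 0.057 and 0.044 and did not pass, and with a correction for transcript length they were -0.0021, -0.019 and -0.030.

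Complex IV, cytochrome c oxidase, had the highest share of called members. Its nuclear subunits surround a catalytic core made from mitochondrial genes. Cox6c had 3010.0, 2939 and 2967 normalised counts in Ahr+/+ cells, against 3487, 3517 and 3219 in Ahr-/- cells (log2 fold change 0.20, SE 0.042, adjusted p = 0.006). Cox6b1, which lies on the side that receives cytochrome c, had 4333, 4422 and 4269 normalised counts against 4783, 5079.9 and 4855 (log2 fold change 0.18, SE 0.039, adjusted p = 0.0068). The lowest Ahr-/- library exceeded the highest Ahr+/+ library in both. Cox7a2 had 2690.5, 2627 and 2709 normalised counts against 3153, 3046 and 2886 (log2 fold change 0.18, adjusted p = 0.01). Cox8a had 3553, 3752 and 3769 normalised counts against 4188, 4255 and 3954 (log2 fold change 0.16, adjusted p = 0.018), a call that held in 12 of 17 other settings. Cox7b had 4353, 4398 and 4372 normalised counts against 5017, 4787 and 4660.1 (log2 fold change 0.14, adjusted p = 0.028). None of these 3 overlapped between genotypes. Cox6a1 had 4084, 4209.7 and 3994 normalised counts against 4579, 4418 and 4484 (log2 fold change 0.13, adjusted p = 0.03), a call that held in 11 of 17 other settings. Its groups were apart as well. The larger subunits that contact the core did not pass. Cox4i1 had 8205, 8223 and 7708 normalised counts against 8441, 8292 and 8133 (log2 fold change 0.042, adjusted p = 0.52). Cox5a had 6990.4, 6584 and 6954 normalised counts against 7184, 6715 and 6173 (log2 fold change -0.034, adjusted p = 0.72). Cox5b had 3997, 4315 and 4171 normalised counts against 4521, 4530.4 and 4389 (log2 fold change 0.11, adjusted p = 0.096). Cox5a had the widest spread of these, with Ahr-/- replicate 1 above and replicate 3 below all Ahr+/+ libraries. Cox7a2l, which joins complexes III and IV into supercomplexes, had 2668, 2789 and 2708 normalised counts against 2756, 2887 and 2782 (log2 fold change 0.047). Cox7c had 2449.6, 2419 and 2475 normalised counts against 2734, 2569.8 and 2437 (log2 fold change 0.072, and -0.0020 with the length correction). Ndufa4, counted with complex I by name, had 4299, 4266 and 4396 normalised counts against 4764, 4739 and 4375 (log2 fold change 0.098, adjusted p = 0.15).

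Several complex IV subunits have a second isoform made mainly in particular tissues, such as lung, heart and skeletal muscle or testis. Most of these were near or below detection here. Cox4i2 had 2 reads in Ahr-/- replicate 3 and 0 in the other libraries, Cox7b2, Cox8b and Cox8c had 0 reads in all 6, and Cox7a1 had 2.01 to 2.91 normalised counts in Ahr+/+ cells and 1.72 to 2.74 in Ahr-/- cells. The floor of 3 reads corresponds to 2.13 to 5.15 normalised counts, depending on the library, so lower levels cannot be told from 0 at this depth, and this covers counting error only. Cox6a2, the muscle form of Cox6a1, had 10, 16 and 10 reads in Ahr+/+ cells against 20, 46 and 30 in Ahr-/- cells. Scaled to library size it had 9.71, 16.1 and 11.2 normalised counts against 34.3, 32.7 and 27.4, all Ahr-/- libraries above all Ahr+/+ libraries (log2 fold change 1.33, SE 0.28, adjusted p = 0.0056). Cox6b2, the testis form of Cox6b1, had 10, 9 and 5 reads in Ahr+/+ cells against 14, 22 and 24 in Ahr-/- cells and a log2 fold change of 1.26 (SE 0.35, adjusted p = 0.026), a call lost without Ahr+/+ replicate 2, Ahr+/+ replicate 3, Ahr-/- replicate 1 or Ahr-/- replicate 3, and by DESeq2's Wald test. Both isoforms were far below their ubiquitous counterparts, Cox6a1 and Cox6b1.

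Cox6a2 is also a gene of mouse plasmacytoid dendritic cells, so the markers of those cells are given beside it. All marker counts stand beside the 9.79% of all tested genes called higher and 8.13% called lower. Of 11 such markers, 7 were higher and 1, Tcf4, was lower in Ahr-/- libraries (log2 fold change of Tcf4 -0.68), and the median was 0.51. The 3 with the largest change are given. Siglech had 57.3, 52.3 and 60.6 normalised counts against 300.4, 236 and 273 (log2 fold change 2.23, adjusted p = 2.1e-07). Klk1 had 8.74, 10.1 and 7.86 normalised counts against 39.5, 38.4 and 45.6 (log2 fold change 2.19). Lair1 had 9.71, 11.1 and 16.8 normalised counts against 56.6, 64.7 and 60.2 (log2 fold change 2.29). For all 3, the Ahr-/- libraries lay above the controls. The summed level of the 11 was 21310.1 to 23093 normalised counts in Ahr+/+ and 20480.5 to 21592 in Ahr-/- libraries, most of it from Spib and Tcf4, which B cells also express, and no marker was at 0. Markers of other cells moved as well. Of 8 tested conventional dendritic cell markers 4 were higher and 1 lower (median log2 fold change 0.90), and their list summed to 824 to 939 normalised counts in Ahr+/+ and 882 to 1073 in Ahr-/- libraries. Of 5 tested NK cell markers 2 were higher and none lower (median 0.60), with sums of 208 to 288 against 291 to 457 and Klra8 at 0. Of 10 macrophage or monocyte markers 2 were higher and 1 lower, with a median of 0.55. Their sums, 1254 to 1591 against 700.3 to 1269, went the other way, and the lower gene was Emr1 (log2 fold change -3.60). Of 5 plasma cell markers 1 was higher and 2 lower (median -0.64), with sums of 14212 to 20220.2 against 13376 to 15019, and of 9 T cell markers 1 was higher and 2 lower, with sums of 6122 to 6530 against 6165 to 7126. The summed neutrophil and erythroid markers overlapped between genotypes. The part of any of these cells in the Cox6a2 value, or in the values of the other members, was not tested.

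**Figure D3:**
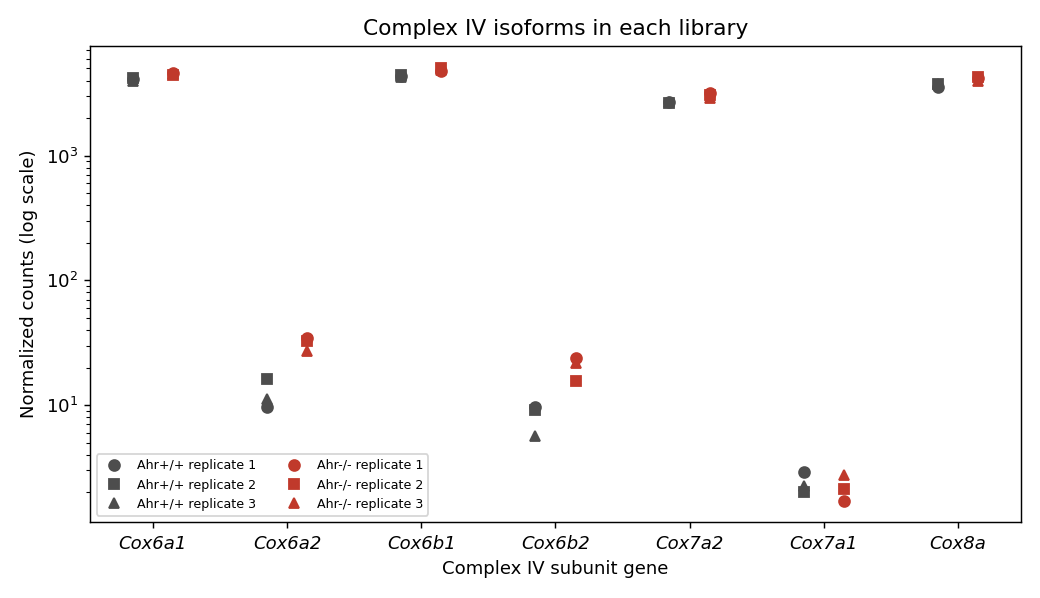
Normalised counts (vertical axis, log scale) of complex IV isoform genes in each of the 6 libraries. Cox6a1, Cox6b1, Cox7a2 and Cox8a lie at 2627 or above in every library, Cox6a2 and Cox6b2 lie between 5.62 and 34.3 and are higher in Ahr-/- libraries, and Cox7a1 is at 2.91 or lower.

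Complex V, ATP synthase, held the member with the largest change after the pair of low isoforms. Atp5k, subunit e, which sits in the membrane where ATP synthase dimers form, had 1683, 1822 and 1735 normalised counts in Ahr+/+ cells, against 2080.1, 2337 and 2102 in Ahr-/- cells. The lowest Ahr-/- library was well above the highest Ahr+/+ library. The means were 1747 ± 70.2 and 2173 ± 143 (SD, n = 3 mice), a rise of 24.8% (log2 fold change 0.32, SE 0.052, adjusted p = 0.00085). Atp5e, the epsilon subunit of the central stalk, had 5014, 4791 and 4838 normalised counts against 5579.7, 5519.9 and 5340.3 (log2 fold change 0.17, SE 0.038, adjusted p = 0.0087). Atp5j2, subunit f, had 2702, 2830.2 and 2799 normalised counts against 3060.1, 3139.9 and 2924 (log2 fold change 0.13, adjusted p = 0.042), and this call held in 7 of 17 other settings and was lost by DESeq2's Wald test and with the replicate block. The genotypes were apart in both. Atp5b, the catalytic subunit of the head, had 57562, 59102 and 59473 normalised counts against 61333, 61994 and 58440.1 (log2 fold change 0.045, adjusted p = 0.42). Atp5a1, which alternates with it in the head, had 38239.7, 39058 and 37571 normalised counts against 38194, 39062 and 37963 (log2 fold change 0.0044, adjusted p = 0.95). Both overlapped between genotypes. Atp5c1, the stalk subunit that turns in the head, had 7505, 6811 and 7274 normalised counts against 7713, 7643 and 7148 (log2 fold change 0.059). Atp5d, another stalk subunit, had 6448, 6865 and 6432 normalised counts against 6664, 6374 and 6556 (log2 fold change -0.012). Neither passed the test. The membrane ring is built from a protein encoded by 3 genes, Atp5g1, Atp5g2 and Atp5g3. Atp5g1 had 4105, 4535 and 4283 normalised counts against 4756, 4583 and 4640.1 (log2 fold change 0.11, adjusted p = 0.10). Atp5g2 had 9633, 9736 and 9377 normalised counts against 9745, 9966 and 9887 (log2 fold change 0.042, adjusted p = 0.46). Atp5g3 had 9647, 9261 and 9337 normalised counts against 10104, 9708 and 8879 (log2 fold change 0.021, adjusted p = 0.81). Atp5g1 and Atp5g2 were higher in every Ahr-/- library and Atp5g3 was not. Atp5j, coupling factor of the stalk, had 3710.3, 3562 and 3634 normalised counts against 4207, 4082 and 3717 (log2 fold change 0.14, adjusted p = 0.069). The subunits Atp5l, Atp5h, Atp5o and Atp5f1 had log2 fold changes of 0.097, 0.083, 0.078 and 0.020, and Atp5s and Atp5sl, which are not subunits, 0.095 and 0.035, and none of these passed.

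The order of levels between genes was read per kilobase of transcript in Ahr+/+ libraries. Atp5b was the most abundant member at 30643 ± 529 normalised counts per kilobase (SD, n = 3 mice). Atp5g2 (16352 ± 316), Atp5a1 (14884 ± 289) and Atp5g3 (13104 ± 284) followed, and the neighbours in that order were separated by more than their spread. Cox4i1 (10656 ± 388) and Cox5a (10609 ± 349), next below Atp5e (11594 ± 279), did not differ beyond theirs. The order rests on annotated transcript lengths, since the transcripts counted are not given.

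A list of 22 subunits held the core of complex I, complex II, Uqcrfs1, Uqcrc1 and Uqcrc2 of complex III, Cox4i1, Cox5a and Cox5b of complex IV, and the stalk and head subunits Atp5a1, Atp5b, Atp5c1, Atp5d and Atp5e of complex V. Not all of these are catalytic. Of this list 1 subunit, Atp5e, was called, against 18 of the 55 other tested subunits. The median log2 fold changes were 0.025 and 0.083. The listed subunits also have longer transcripts, with a median length of 1272 bases against 625 bases, and length moved with the result. Among subunits of up to 1000 bases, 1 of 7 listed and 16 of 44 other subunits were called, with medians of 0.057 and 0.086. Among longer ones, none of 15 listed and 2 of 11 other subunits were called, with medians of 0.0044 and 0.052. Among members with at least 50 normalised counts, 15 of 49 with transcripts of up to 1000 bases were called higher, against 3 of 36 with longer ones. Over these 85 genes the log2 fold change and log2 length had a Pearson r of -0.39 and a Spearman rho of -0.37, across genes that share the 6 libraries and are not independent. Other genes moved with length too. In 829 other tested genes with a mean of at least 50 counts and transcripts of up to 1000 bases, the median log2 fold change was 0.045. Among other genes at that level, in the shortest class, up to 600 bases, 12.2% of 188 other genes were called higher and 2.66% lower with a median of 0.038, beside 10 of 24 members called higher with a median of 0.097, and in the class over 5000 bases 11.2% of 1385 were higher and 12.9% lower.

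**Figure D4:**
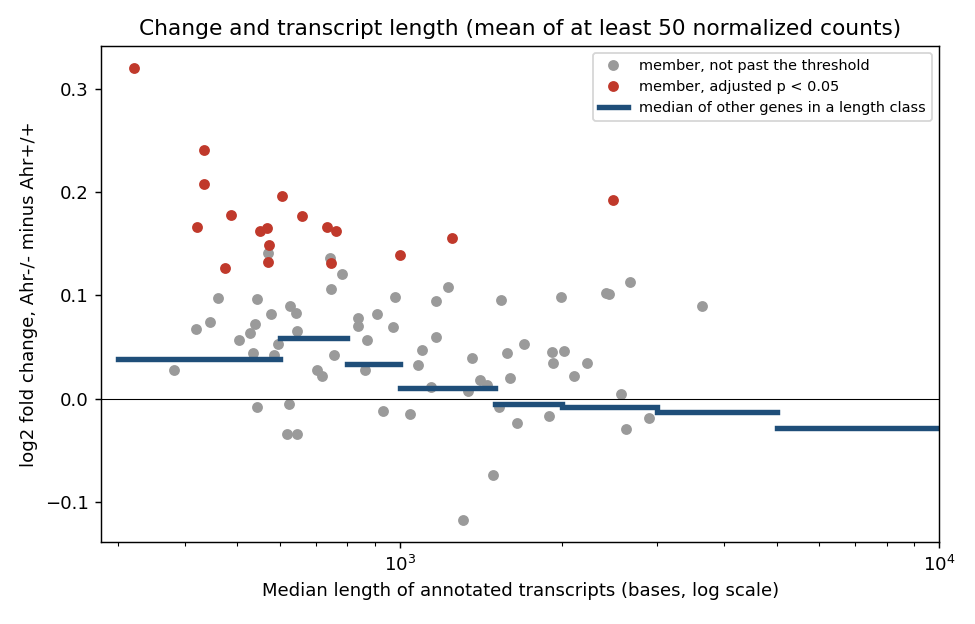
Log2 fold change (vertical axis) against the median length of annotated transcripts (horizontal axis, bases, log scale) for the 85 members with at least 50 normalised counts. Blue lines give the median of the other tested genes with a mean of at least 50 counts in each length class, which falls from 0.059 at 600 to 800 bases to -0.028 above 5000 bases, and most red points lie at lengths under 1000 bases.

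With a correction for transcript length within each library, chosen after this pattern was seen, 8 members were called higher and none lower, where 9.46% of all tested genes were called higher and 7.74% lower. All 8 were among the 20. With log2 fold change and adjusted p in parentheses, they were Atp5k (0.25, 0.0075), Uqcr10 (0.16, 0.032), Ndufa3 (0.13, 0.043), Cox6c (0.13, 0.041), Sdhaf1 (0.19, 0.015), Ndufa13 (0.15, 0.025), Cox6a2 (1.27, 0.0066) and Cox6b2 (1.19, 0.034). The other 12 stayed positive without passing. They were Ndufb10 (0.11, 0.091), Ndufb3 (0.11, 0.13), Cox7a2 (0.11, 0.064), Cox7b (0.11, 0.060), Cox6b1 (0.10, 0.13), Ndufs6 (0.095, 0.17), Cox8a (0.089, 0.18), Atp5e (0.088, 0.13), Atp5j2 (0.080, 0.21), Ndufa2 (0.079, 0.20), Cox6a1 (0.061, 0.32) and Uqcrh (0.050, 0.47). Of the 88 tested members 60 were then positive, the median was 0.029, and that of complex III was -0.0099. The 22 listed subunits had no call and a median of -0.0028, and the other subunits 7 calls and a median of 0.040. A correction for length and GC content together called 13 members higher, and Ndufv2 lower. It called 2726 of all tested genes in either direction, against 2453 without a correction.

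**Figure D5:**
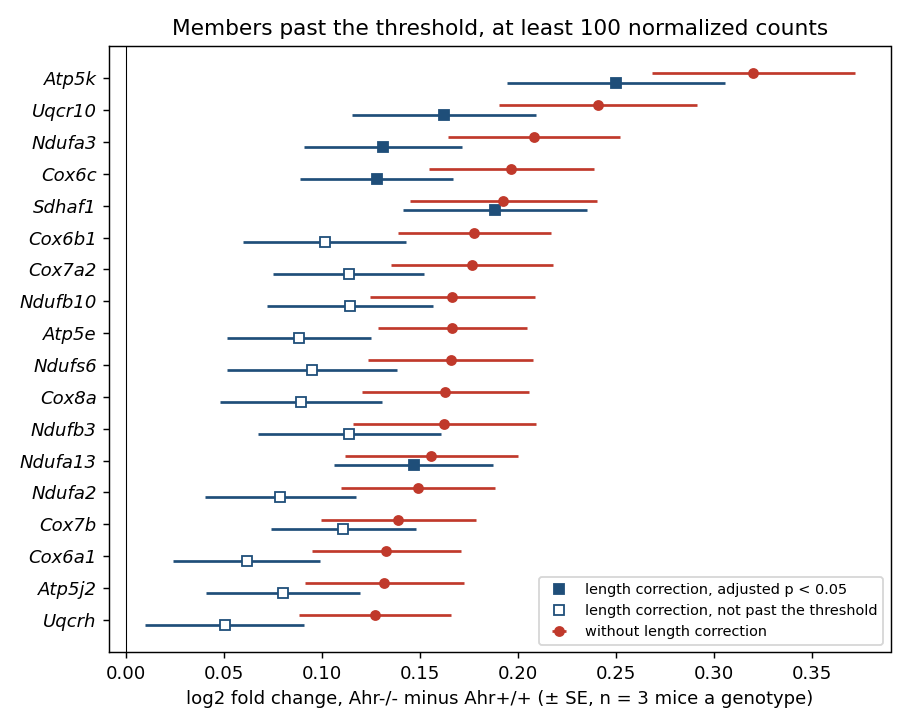
Log2 fold change with standard error (horizontal axis, n = 3 mice per genotype) of the 18 called members with at least 100 normalised counts, without (red) and with (blue) a correction for transcript length. Filled blue squares still pass the threshold, and the other blue values stay above 0, the lowest being Uqcrh at 0.050.

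Genes of the chain and its supply that carry other names were described from lists, whose counts stand beside the 9.79% of all tested genes called higher and 8.13% called lower. The lists held 12 called genes in all, a number that was 6 without Ahr+/+ replicate 1, 4 without Ahr-/- replicate 2, 8 without Ahr+/+ replicate 3 and 20 without Ahr-/- replicate 3. Of 10 electron carriers and subunits with other symbols, 3 were called higher and none lower, with a median log2 fold change of 0.12. Atpif1, the inhibitor of ATP synthase hydrolysis, had 607, 708 and 674 normalised counts against 815, 775 and 791 (log2 fold change 0.26, adjusted p = 0.015). Etfb, of the electron transfer flavoprotein, had 1302, 1451 and 1323 normalised counts against 1565, 1519.8 and 1610.2 (log2 fold change 0.20, adjusted p = 0.014). Gpd2, the mitochondrial glycerol phosphate dehydrogenase, had 2081, 2024 and 2118 normalised counts against 2190.0, 2387 and 2368 (log2 fold change 0.16, adjusted p = 0.019). These 3 genes had separate libraries. Etfdh, which feeds electrons from that flavoprotein to ubiquinone, had 1247, 1249 and 1253 normalised counts against 1347, 1355 and 1368 (log2 fold change 0.12, adjusted p = 0.07). Of 30 assembly factors with other symbols, 2 were higher, 1 was lower and the median was -0.0012. Cox17, a copper chaperone of complex IV, had 1101, 1096 and 1111 normalised counts against 1346, 1446 and 1209.9 (log2 fold change 0.28, adjusted p = 0.0076). Pet100, another complex IV factor, had 659.5, 629.8 and 597 normalised counts against 714, 759 and 801 (log2 fold change 0.27, adjusted p = 0.009). Ecsit, a complex I factor, was lower with 1659, 1694 and 1586 normalised counts against 1397, 1486 and 1509 (log2 fold change -0.17, adjusted p = 0.025). Nubpl, which inserts iron-sulphur clusters into complex I, had 415 to 466 normalised counts in Ahr+/+ cells and 383 to 391 in Ahr-/- cells (log2 fold change -0.20, adjusted p = 0.081).

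Of 16 citrate cycle enzymes none was higher and 1 was lower. Dlst, a component of the oxoglutarate dehydrogenase complex, had 10399.6, 10880.3 and 10902 normalised counts in Ahr+/+ cells, against 7504, 7603 and 7644 in Ahr-/- cells (log2 fold change -0.50, SE 0.036, adjusted p = 7.9e-07). All Ahr-/- libraries were below the Ahr+/+ libraries. Of 12 regulators of mitochondrial biogenesis 1 was higher and 1 lower, and the median was -0.038. Nrf1, the factor NRF-1, had 3359.7, 3421 and 3328 normalised counts against 2801, 2846 and 3168 (log2 fold change -0.20, adjusted p = 0.013), and all its Ahr-/- libraries were below the controls. Ppargc1b, a coactivator, had 257, 277 and 279.6 normalised counts against 293, 345 and 355 (log2 fold change 0.30, adjusted p = 0.038). Tfam, which packages and transcribes mitochondrial DNA, had 3113 to 3511 normalised counts in Ahr+/+ cells and 2989.9 to 3055 in Ahr-/- cells (log2 fold change -0.14, adjusted p = 0.054). Of 76 mitochondrial ribosomal protein genes 3 were higher and none lower, with a median of 0.027. They were Mrps21 (log2 fold change 0.22, adjusted p = 0.012), Mrpl20 (log2 fold change 0.14, adjusted p = 0.036) and Mrps7 (log2 fold change 0.13, adjusted p = 0.038).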

How the data were processed

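Poly(A) RNA of 6 cultures was made into stranded libraries and sequenced on an Illumina HiSeq instrument. The authors deposited the reads on each gene as raw counts, without normalization; the submitters' processing notes name TopHat2, HTSeq, DESeq and the build mm10. The authors' normalised counts and their comparison (fold changes and p-values) were not used.

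Counts were tested between genotypes with edgeR 4.0.16 (R 4.3.3) by the quasi-likelihood test after TMM normalization, over genes with at least 10 counts in total, with Benjamini-Hochberg adjustment over all 13682 genes and a threshold of 0.05. Normalised counts are counts divided by the effective library size relative to the mean. Lengths are medians over transcripts of the GENCODE M21 basic annotation, matched by symbol. The length and GC corrections are loess fits (span 0.3, genes with a mean of at least 50 counts) per library, passed to edgeR as offsets. DESeq2 1.42.0 and other settings were alternatives, and the scripts were tested on simulated data. P-values measure the spread between 3 mice per genotype. Chi-square tests of the counts of each of the 15 pairs of libraries gave 3.97 to 45.4 per degree of freedom, so no library repeats another.

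Named were members past the threshold, listed larger or catalytic subunits and isoforms, the extremes of each complex, and up to 4 genes per list with the smallest p. The members and lists were chosen with earlier results of these data known. Promoter entries were missing for 19 members, and no sequence is shown for them. Values of some genes are not reported here.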

Additional observations from a re-analysis of the deposited data

How the results depend on the processing

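The 20 members called higher were also called with no filter, a stricter filter, library size alone, DESeq2's size factors, a robust fit or a prior count of 2, with 20 to 27 called in all. All tested genes called in these settings ranged from 2400 with the stricter filter to 2639 with no filter. DESeq2's Wald test called 16 members (without Atp5j2, Cox6b2, Ndufa2 and Ndufb3) and 2198 of all tested genes. By edgeR, 7 members were called at an adjusted p under 0.01. With a library left out, 9 to 26 members were called higher and 0 to 1 lower, while all tested genes called ranged from 1664 to 2601 (2453 with all libraries), 4 to 20 genes of the surrounding lists (12 without leaving any out, 3 at 0.01), and the medians of complex III lay between 0.029 and 0.084. With a length correction 8 were higher (2353 of all tested genes called), and with length and GC together 13 were higher and 1 lower (2726 of all). GC alone called 20 (2682 of all), and these corrections were chosen after seeing the data. All tested genes past 0.01 numbered 1473. Library size alone gave medians of 0.088 for complex I, 0.085 for II, 0.161 for IV and 0.103 for V. The length correction gave 0.029 over all members and 0.020, -0.0099, 0.075 and 0.037 for complexes I, III, IV and V, and with GC 0.032 over all members and 0.030, 0.015, 0.101 and 0.033. The cause of these shifts was not tested. Near 0, signs turned for genes that were not called, 14 members with the length correction, 2 with GC and 11 with both. Atp5a1 was -0.00022 with DESeq2's size factors, -0.00016 by DESeq2's test, -0.025 with GC and -0.0070 with both corrections, and Sdhb -0.0066 with length, -0.0089 with GC and -0.011 with both. Length and both corrections gave Atp5g2 -0.028 and -0.0097, and Atp5g3 -0.036 and -0.035, and length gave Cox4i1 -0.0088. Library size alone gave Atp5d 0.013, Ndufs3 0.010, Ndufv1 0.017, Sdha 0.0064, Uqcrc1 0.0013 and Uqcrc2 0.0084. With a library left out, Atp5a1 ranged from -0.010 to 0.018, Atp5d from -0.029 to 0.019, Atp5g3 from -0.018 to 0.070, Cox5a from -0.086 to 0.018, Cox7a1 from -0.25 to 0.088, Ndufs3 from -0.037 to 0.012, Ndufv1 from -0.029 to 0.010 and Uqcrc2 from -0.036 to 0.0036. Whether the replicate numbers in the labels pair the mice is not given. The deviations of same-numbered libraries had correlations of -0.030, 0.12 and -0.045 (-0.13, 0.25 and -0.16 in genes with a mean of at least 50). Differently numbered libraries had -0.18 to 0.18 over all genes, so these values do not decide the pairing. With the replicate block 17 members were called (without Atp5j2, Ndufb3 and Uqcrh), and 2303 of all tested genes. At these depths the floor of 3 counts hides isoforms below 2.13 to 5.15 normalised counts.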
